A study of Mus musculus with 9 samples.

Results

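The Hox genes of the A, B, C and D clusters were described in male C57BL/6J mice, in periprostatic fat, a visceral depot that surrounds the prostate. Members were the genes whose symbol is Hoxa, Hoxb, Hoxc or Hoxd followed by a number, each read from a probe set with exactly 1 gene symbol. The array gave 36 such genes of 22180 genes tested: 9 in the A cluster, 10 in the B cluster, 9 in the C cluster and 8 in the D cluster. Other Hox genes were not analysed here. From 6 weeks of age, 5 mice were fed a high fat diet with 60 kcal% fat and 4 mice a low fat diet with 10 kcal% fat. Tissue was taken after 12 weeks, at 18 weeks of age, and RNA of each mouse was hybridised to 1 Affymetrix Mouse Gene 2.0 ST array. The labels give no genetic change for any mouse, and the only labelled difference between the groups was the diet. The comparison asks which positions of the Hox clusters were bright in this depot and which differed between the diets.

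Hox genes encode homeodomain transcription factors that give cells their position along the body axis of the embryo. Within a cluster, genes at the 3′ end, with low paralog numbers, act toward the head, and genes at the 5′ end, with high numbers, toward the tail and the distal limb. Genes with the same number in different clusters are paralogs, which arose by duplication of an ancestral cluster. Adult mesenchymal cells keep much of the Hox pattern of their place of origin, and fat depots differ from each other in it. Polycomb complexes hold clusters silent, trithorax complexes keep them active, retinoic acid and Cdx factors switch them on in the embryo, and Pbx and Meis proteins bind DNA together with Hox proteins.

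Values are log2 expression values as deposited, and a difference is high fat minus low fat on that scale. A gene was said to have fallen or risen when limma's Benjamini-Hochberg adjusted p over all 22180 genes was below 0.05. Of all genes, 21.5% passed this threshold, 12.4% higher and 9.13% lower in high fat mice. Lower genes made up 42.5% of the genes called, 54.4% after quantile normalization was repeated and 57.8% with each array centred on its median, so the split over all genes depended on the scaling. Arrays correlated at 0.991 to 0.996 within diets and at 0.973 to 0.989 between them. No detection calls were used, so brightness was read against 2 marks. The median level of all genes was 6.96, and the 95th percentile of 1408 sensory receptor genes, which have few transcripts in fat, was 6.36. Levels of different genes come from different probes and do not order the amounts of their transcripts.

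Markers of the labelled tissue were bright: the mean of 12 adipocyte genes lay between 12.21 and 12.40 in high fat mice and between 12.55 and 12.63 in low fat mice, and 9 of the 12 fell while Lep, the gene of leptin, rose. Progenitor genes had means of 10.15 to 10.45 in high fat and 9.46 to 9.80 in low fat mice, with 8 of 13 higher. Macrophage genes had means of 10.78 to 11.36 and 9.54 to 9.91, with 11 of 12 higher. Nerve genes, of Schwann cells and neurons, had means of 6.618 to 6.754 and 6.255 to 6.533, with 3 of 6 higher. These lists moved with diet in the same mice as the Hox genes below, and their part in the Hox differences was not tested. In whole tissue, fewer cells of a type and less RNA per cell cannot be told apart. All 13 measured prostate and seminal vesicle genes, Pbsn (probasin) and Svs2 among them, lay at or below the sensory receptor reference, with list means of 5.25 to 5.35 in high fat and 5.24 to 5.33 in low fat mice. The 13 include Hoxb13, itself a Hox member. Of the 13 only Trp63 passed, at -0.17 without overlap (adjusted p = 0.0235 by limma). Of the epididymis and vas deferens genes 7 of 8 lay at or below the sensory receptor reference, and of the urothelial genes 5 of 7. Mesothelial genes ranged from 8.04 to 9.29 in high fat and from 7.55 to 8.64 in low fat mice, and 0 of 9 passed the test. Smooth muscle genes stood at 9.96 in low fat mouse 2 and between 8.30 and 8.69 in the other mice. Skeletal muscle genes stood at 8.36 in high fat mouse 1 and at 7.16 in low fat mouse 4, and all other mice had 6.33 to 6.48.

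**Figure D1:**
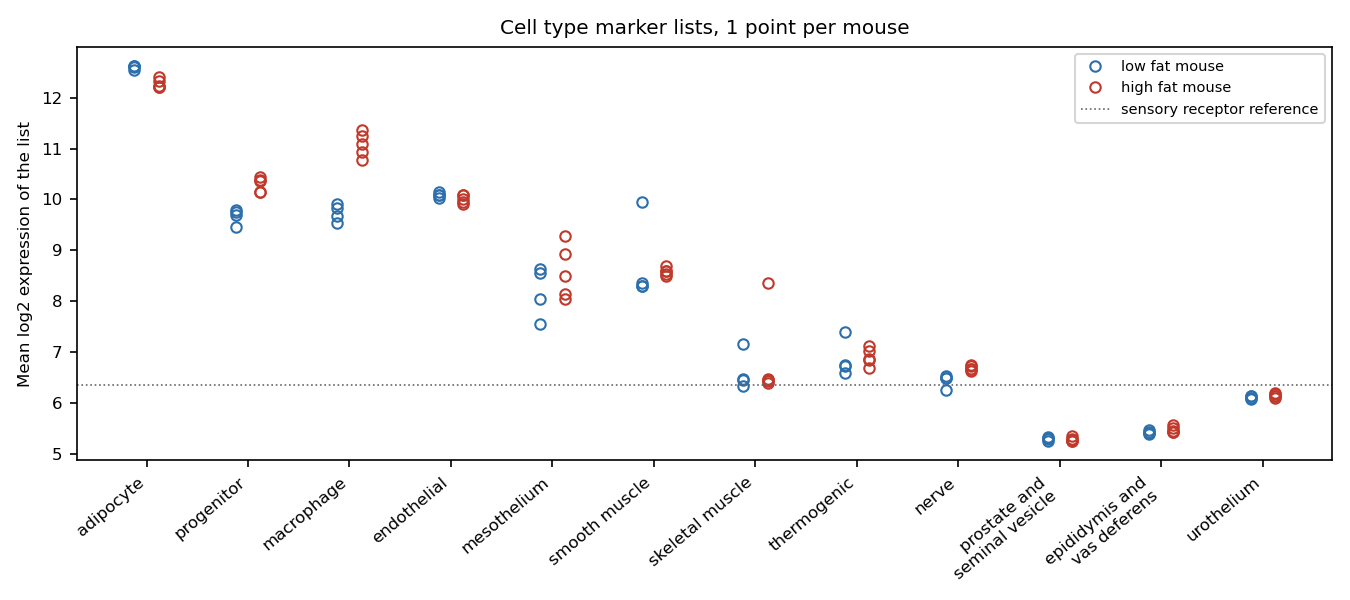
Mean log2 expression (vertical axis) of 12 marker lists in each mouse, low fat in blue and high fat in red, with the sensory receptor reference of 6.36 as a dotted line. Adipocyte, progenitor, macrophage and nerve means do not overlap between diets, and the prostate and seminal vesicle means stay below 5.35.

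The brightest Hox probe sets were those of the central paralog groups. Of 36 members, 25 lay above the sensory receptor reference and 19 above the median of all genes, 8 of 9 in the A cluster, 4 of 10 in B, 5 of 9 in C and 2 of 8 in D. The central paralog groups, 4 to 8, had 11 of 14 members above the median of all genes. The anterior groups, 1 to 3, had 3 of 7, and the posterior groups, 9 to 13, had 5 of 15. With the stricter mark of the 99th percentile of sensory receptor genes, at 7.25, 13 of 36 members lay above it.

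Hoxc8 was the brightest member, with a mean of 10.52 over 9 mice, higher than 94.7% of all genes. Hoxc6 followed at 9.48 and Hoxa6 at 8.31. Next came Hoxa7 at 8.08, Hoxd8 at 8.03 and Hoxa5 at 7.91. All 6 belong to paralog groups 5 to 8. Among the posterior genes Hoxa13, which acts in the most distal limb and in the urogenital tract of the embryo, was the brightest at 7.71. The other paralogs of group 13 lay far below it on their own probes: Hoxc13 at 6.14, Hoxd13 at 5.73 and Hoxb13, a gene of the prostate epithelium, at 5.38.

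**Figure D2:**
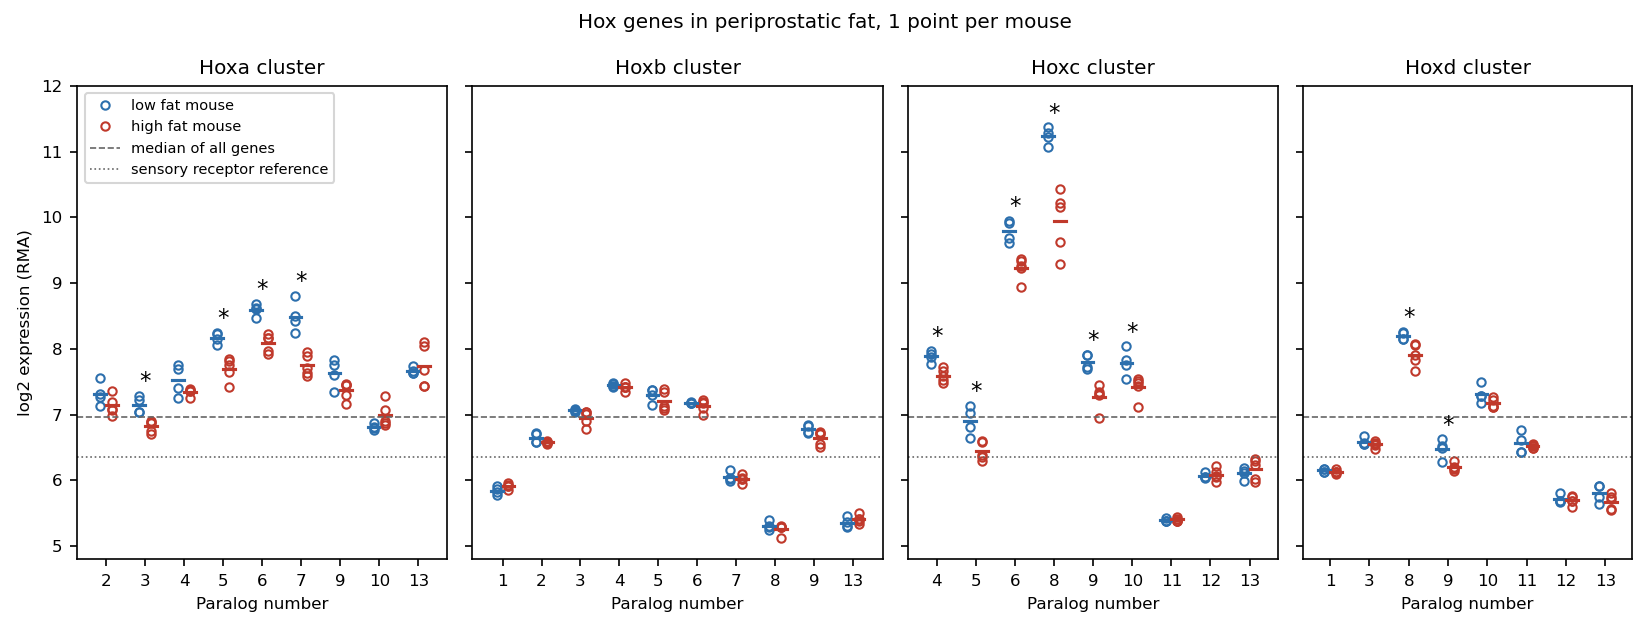
Log2 expression of each Hox gene (vertical axis) by paralog number (horizontal axis) in the 4 clusters, 1 point per mouse, low fat in blue and high fat in red, with short bars for group means. Stars mark members with an adjusted p below 0.05, the dashed line is the median of all genes (6.96) and the dotted line the sensory receptor reference (6.36); Hoxc8 is the brightest member and its groups are the farthest apart.

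Of the 36 Hox genes 12 fell in high fat mice and 0 rose, against 9.13% of all genes lower. An unadjusted p below 0.05 was reached by 14, all with lower values in high fat mice, where 15% of all genes were lower at that threshold. The 12 were Hoxa3, Hoxa5, Hoxa6, Hoxa7, Hoxc4, Hoxc5, Hoxc6, Hoxc8, Hoxc9, Hoxc10, Hoxd8 and Hoxd9, and the same 12 fell under both other scalings. The difference was below 0 for 29 of 36 members, with a median of -0.12, whereas 50.4% of all genes had a difference below 0 and their median was -0.00. The groups of mice did not overlap for 10 members, all lower in high fat mice, against 9.15% of all genes lower without overlap. Folds of the 12 ran from 1.21 to 2.45, and 2 of them were at least 1.5-fold. With limma's treat test against a 1.1-fold change, 6 of the 12 passed: Hoxa5, Hoxa6, Hoxa7, Hoxc6, Hoxc8 and Hoxc9.

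By cluster, 4 of 9 members fell in A, 0 of 10 in B, 6 of 9 in C and 2 of 8 in D. By paralog number, 1 of 7 anterior, 8 of 14 central and 3 of 15 posterior members fell. The clusters and paralog groups were not tested against each other. Of the 19 members above the median of all genes 10 fell, where 15.4% of all genes that bright were lower. Of the 25 members above the sensory receptor reference 11 fell, where 13.8% of such genes were lower. Of the 11 members at or below the sensory receptor reference 1 fell, where 2.15% of such genes were lower. Across the 36 genes, which share the 9 arrays and are not independent, level and difference had a Pearson correlation of -0.78, or -0.67 without Hoxc8. A compressed fold in dim genes and a lack of change in them cannot be told apart here.

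**Figure D3:**
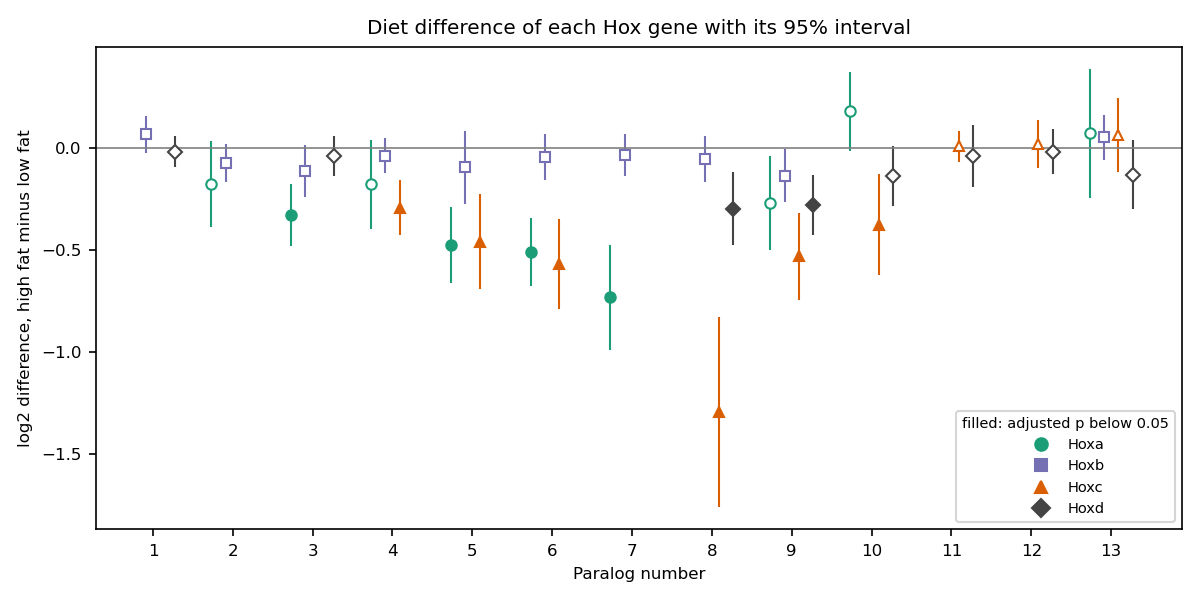
Difference between diets (vertical axis, log2, high fat minus low fat) of each Hox gene by paralog number (horizontal axis), with its 95% interval and a symbol for each cluster, filled where the adjusted p was below 0.05. The filled symbols lie below 0 in groups 3 to 10 of clusters A, C and D, and the B cluster stays near 0.

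In the C cluster, every measured gene from Hoxc4 to Hoxc10 fell, and these 6 genes are neighbours in the RefSeq order of the cluster. Hoxc8, a central gene that patterns the thoracic spine and its motor neurons, had values of 10.43, 10.16, 9.62, 10.22 and 9.29 in high fat mice 1 to 5. In low fat mice 1 to 4 it had values of 11.08, 11.37, 11.29 and 11.23. The groups did not overlap, and the high fat mice were spread far more widely than the low fat mice (SD 0.47 and 0.12), with mice 5 and 3 lowest. The difference was -1.29 (SE 0.21, adjusted p = 0.00177 by limma), 2.45-fold lower in high fat mice. Leaving out each mouse in turn gave -1.42 to -1.13. The 2 mice lowest for Hoxc8 had the highest and the lowest mesothelial means of the high fat group, 9.29 in mouse 5 and 8.04 in mouse 3. With that mean as a covariate the difference was -1.20 (adjusted p = 0.00601 by limma). The part of mesothelial cells in the Hox values was not tested.

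Hoxc6, which marks thoracic position, stood at 9.36, 9.26, 8.94, 9.33 and 9.22 in high fat mice 1 to 5. Its low fat values were 9.61, 9.94, 9.92 and 9.69. The groups did not overlap and the difference was -0.57 (SE 0.10, adjusted p = 0.00261 by limma), 1.48-fold lower in high fat mice. Hoxc9, a posterior gene that limits limb-level motor neuron fates in the thoracic cord, had 7.45, 7.31, 7.30, 7.35 and 6.95 in high fat mice. It had 7.69, 7.91, 7.72 and 7.90 in low fat mice. High fat mouse 5 was again the lowest, the groups did not overlap, and Hoxc9 was 1.44-fold lower (adjusted p = 0.00337 by limma).

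Hoxc4 and Hoxc5 lie at the 3′ end of this cluster and act in the neck and upper trunk. Hoxc4 had 7.48, 7.53, 7.58, 7.72 and 7.66 in high fat mice against 7.76, 7.97, 7.92 and 7.88 in low fat mice. Hoxc5 had 6.36, 6.59, 6.29, 6.59 and 6.38 against 7.13, 7.02, 6.64 and 6.81. Both were without overlap, by a narrow margin in each, and were 1.22-fold and 1.37-fold lower (adjusted p = 0.00765 and 0.0113 by limma).

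Hoxc10, a posterior gene of lumbar position, had 7.50, 7.54, 7.11, 7.49 and 7.44 in high fat mice. Its low fat values were 7.83, 8.04, 7.54 and 7.75. High fat mouse 3 stood below the other high fat mice, and low fat mouse 3 overlapped the high fat range. The difference of -0.37 (adjusted p = 0.0370 by limma) missed the threshold without high fat mouse 1, 3, 4 or 5, at -0.40, -0.30, -0.39 and -0.38. It also missed it without low fat mouse 1, 2 or 4, at -0.36, -0.29 and -0.39, with adjusted p-values of 0.0521 to 0.0950 over these 7 fits. The 3 genes at the 5′ end, Hoxc11, Hoxc12 and Hoxc13, did not pass. Their means over 9 mice were 5.40, 6.08 and 6.14, all below the sensory receptor reference, and their differences lay between 0.01 and 0.07.

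In the A cluster, Hoxa5, Hoxa6 and Hoxa7 fell together and are neighbours. Hoxa7 had 7.59, 7.71, 7.63, 7.89 and 7.96 in high fat mice 1 to 5 and 8.50, 8.80, 8.23 and 8.42 in low fat mice 1 to 4. Low fat mouse 2 was the highest and the groups did not overlap. The difference was -0.73 (SE 0.12, adjusted p = 0.00158 by limma), 1.66-fold lower and the second largest of the members after Hoxc8.

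Hoxa6 had 8.17, 7.96, 7.92, 8.17 and 8.23 in high fat mice against 8.47, 8.69, 8.63 and 8.60 in low fat mice. It was 1.42-fold lower and had the smallest adjusted p of all members, 0.00107 by limma. Hoxa5, which is needed for lung and trunk development and is expressed in fat and its progenitors, had 7.84, 7.81, 7.42, 7.65 and 7.75 against 8.16, 8.24, 8.06 and 8.22. It was 1.39-fold lower (adjusted p = 0.00293 by limma). In both genes every low fat mouse lay above every high fat mouse, and high fat mouse 3 was the lowest.

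Hoxa3, an anterior gene that patterns the pharyngeal arches and the thymus, had 6.71, 6.88, 6.75, 6.89 and 6.90 in high fat mice. It had 7.05, 7.29, 7.23 and 7.05 in low fat mice, without overlap. It was 1.25-fold lower (adjusted p = 0.00680 by limma). Its RefSeq gene model overlaps those of Hoxa4, Hoxa5 and Hoxa6, so probes of these genes may in part read each other's transcripts, and the calls of Hoxa3, Hoxa5 and Hoxa6 are uncertain to that extent. The other A cluster members did not pass. Hoxa2 differed by -0.18, Hoxa4 by -0.18 and Hoxa9 by -0.27 with an adjusted p of 0.0971 by limma. Without low fat mouse 3, which had the lowest value of its group in both, Hoxa9 (-0.36, adjusted p = 0.0178 by limma) and Hoxa4 (-0.27, adjusted p = 0.0477) passed.

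The 2 posterior A cluster genes beyond Hoxa9 went the other way without passing the test. Hoxa10, which is needed in the uterus and the vas deferens, ranged from 6.84 to 7.29 in high fat and from 6.77 to 6.88 in low fat mice, a difference of +0.18 (adjusted p = 0.181 by limma). Hoxa13 had 7.44, 7.44, 7.68, 8.10 and 8.04 in high fat mice, whereas its low fat values lay between 7.63 and 7.73. The high fat mice thus lay on both sides of a narrow low fat range. The mean difference was +0.07 (95% interval -0.24 to 0.39) and turned to -0.02 without high fat mouse 4 and to -0.00 without high fat mouse 5.

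In the D cluster the neighbours Hoxd8 and Hoxd9 fell. Hoxd8, the brightest D member, had 8.05, 7.90, 7.83, 8.07 and 7.67 in high fat mice against 8.15, 8.25, 8.15 and 8.25 in low fat mice. The groups did not overlap and high fat mouse 5 was again the lowest. It was 1.23-fold lower (adjusted p = 0.0261 by limma). Without high fat mouse 2 or 3, or low fat mouse 2 or 4, it missed the threshold at -0.30, -0.28, -0.28 and -0.28, and with the mesothelial mean as a covariate it did so at -0.25 (adjusted p = 0.0675). Hoxd9, which acts in the limb bud and lumbar cord, had 6.29, 6.20, 6.17, 6.19 and 6.14 against 6.62, 6.49, 6.28 and 6.52. Low fat mouse 3 overlapped the high fat range. Hoxd9 was 1.21-fold lower (adjusted p = 0.0133 by limma). With a mean of 6.32 over 9 mice, it was the only member that fell among those at or below the sensory receptor reference. Its low fat mean of 6.48 lay above that reference and its high fat mean of 6.20 below it.

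The other D cluster members did not pass. Hoxd10 was the brightest of them, with a mean of 7.23 and a difference of -0.14. Hoxd1, Hoxd3, Hoxd11 and Hoxd12 differed by -0.04 to -0.02 and Hoxd13 by -0.13. The models of Hoxd10 and Hoxd11, and of Hoxd3 and Hoxd4, overlap in RefSeq.

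In the B cluster none of the 10 members passed, where 9.13% of all genes were lower, and 1 had an unadjusted p below 0.05. At that share few calls fall among 10 genes, so the count alone does not set this cluster apart. That gene was Hoxb9, at 6.51 to 6.73 in high fat and 6.72 to 6.84 in low fat mice, with a difference of -0.13 (adjusted p = 0.139 by limma). Hoxb4, known for the expansion of blood stem cells, was the brightest B member with a mean of 7.43. Its difference was -0.04 with a 95% interval of -0.12 to 0.05. Hoxb5, Hoxb6 and Hoxb3 also lay above the median of all genes, with means of 7.24, 7.15 and 7.00 and differences of -0.09, -0.04 and -0.11. The RefSeq models of Hoxb3 and Hoxb4 overlap, so their probes may share transcripts too. Hoxb5 had a further probe set with a mean of 6.62 and a difference of -0.00. Hoxb2 and Hoxb9 lay between the marks, at 6.61 and 6.70. Hoxb1, Hoxb7, Hoxb8 and Hoxb13 lay below the sensory receptor reference, at 5.28 to 6.03, with differences of -0.05 to 0.07. With the mesothelial mean as a covariate Hoxb5 (-0.18, adjusted p = 0.0237 by limma) and Hoxa2 (-0.27, adjusted p = 0.0264) passed.

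Paralogs are given side by side, with no test between them. In group 6, Hoxc6 differed by -0.57 and Hoxa6 by -0.51, and Hoxb6 by -0.04. In group 5, Hoxa5 and Hoxc5 differed by -0.47 and -0.46, and Hoxb5 by -0.09. In group 8, Hoxc8 differed by -1.29, Hoxd8 by -0.30 and Hoxb8, whose mean was 5.28, by -0.05. In group 9 all 4 members had an unadjusted p below 0.05 and lower values in high fat mice: Hoxc9 at -0.53, Hoxd9 at -0.28, Hoxa9 at -0.27 and Hoxb9 at -0.13. Hoxc9 and Hoxd9 passed after adjustment. In groups 11 to 13, 0 of 8 members passed, where 9.13% of all genes were lower. Of these members only Hoxa13 and Hoxd11 lay above the sensory receptor reference, and 2.15% of genes at or below it were lower. At these shares few calls fall among 8 genes, so the count alone does not set these groups apart.

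**Figure D4:**
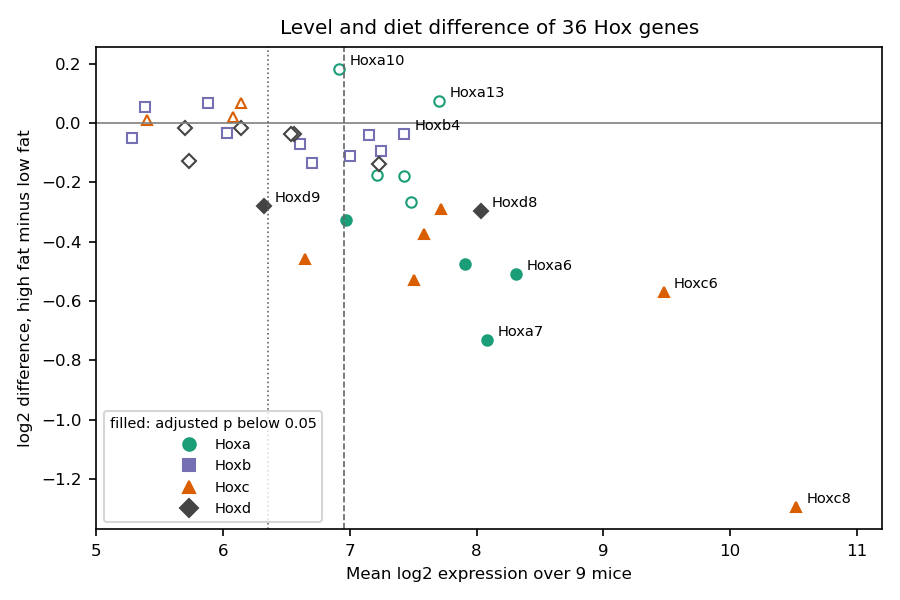
Difference between diets (vertical axis, log2) against mean log2 expression over 9 mice (horizontal axis) for the 36 Hox genes, filled where the adjusted p was below 0.05, with the sensory receptor reference (dotted) and the median of all genes (dashed). Hoxc8 lies apart at a level of 10.52 and a difference of -1.29, and the B cluster genes (squares) lie near 0 at levels of 5.28 to 7.43.

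The highest and lowest mice were counted over the 12 genes. Low fat mouse 2 had the highest low fat value in 10 of the 12, and low fat mice 1 and 3 had the lowest in 6 each. Low fat mouse 2 also had the highest mean of the smooth muscle genes and of the thermogenic fat genes. The thermogenic mean was 7.40 in that mouse, 6.59 to 6.74 in the other low fat mice and 6.69 to 7.11 in high fat mice. Ucp1, the uncoupling protein of thermogenic fat, stood at 7.72 in low fat mouse 2 and at most at 5.97 elsewhere, and Cidea at 8.76 and Cox8b at 10.64 were highest there. Ppargc1a at 8.40 and Cox7a1 at 8.145 were also highest there. Otop1 at 7.33, Elovl3 at 5.82 and Dio2 at 6.33 were highest there among low fat mice. Otop1 was still below every high fat mouse. Lhx8 was lowest of all mice there at 5.04, and Zic1 was lowest of the low fat mice at 5.84. Elovl3 and Dio2 were higher in high fat mouse 2, and the smooth muscle gene Synpo2 was lowest in low fat mouse 2, at 9.24. The part of smooth muscle or thermogenic cells in the Hox values was not tested, and without low fat mouse 2, 10 of the 12 passed. With the smooth muscle mean as a covariate, 12 members fell and all 12 were shared with the call over all mice. That mean stood apart in low fat mouse 2 alone (9.96, against 8.30 to 8.69 in the others), so this fit cannot test the part of smooth muscle. Among high fat mice, mouse 3 was the lowest in 5 of the 12, mouse 5 in 4 and mouse 1 in 3, while the highest was mouse 1 in 5, mice 4 and 5 in 3 each and mouse 2 in 1. Apart from Hoxc10 and Hoxd8, the 10 other genes passed in each of the 9 fits that left out 1 mouse. For each of the 10 members without overlap the two-sided exact permutation test gave p = 0.0159, the smallest that groups of 5 and 4 mice allow. Groups without overlap always give this value, so it adds nothing to the lack of overlap. For Hoxc10 and Hoxd9 the exact permutation test gave p = 0.0317.

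**Figure D5:**
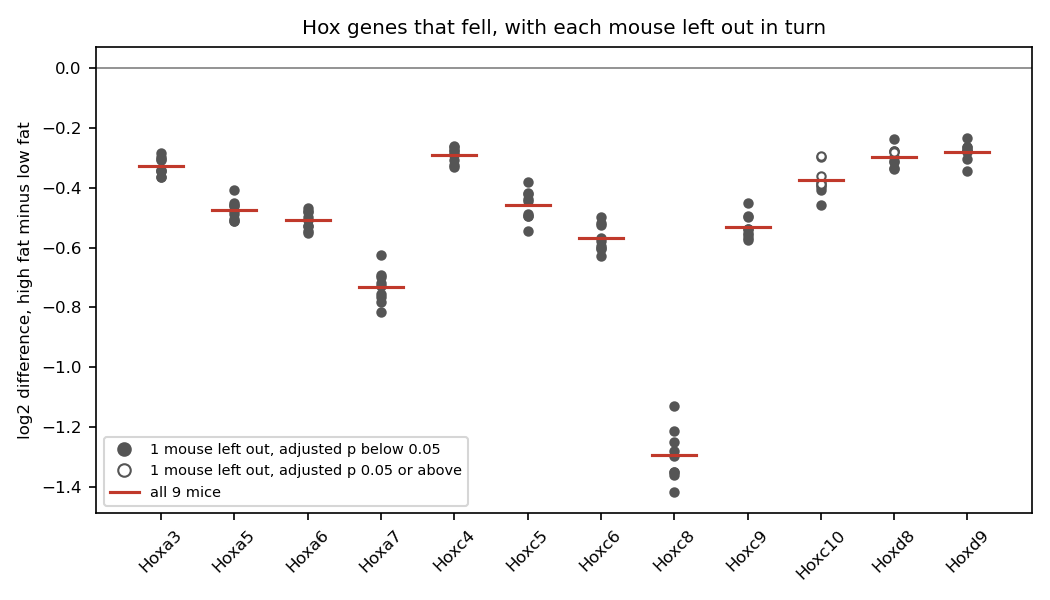
Difference between diets (vertical axis, log2, high fat minus low fat) of the 12 Hox genes that fell (horizontal axis), with a red bar for all 9 mice and a point for each fit that leaves out 1 mouse, open where the adjusted p was 0.05 or above. Every point lies below 0, from -1.42 to -1.13 for Hoxc8, and the open points belong to Hoxc10 and Hoxd8.

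Promoter windows are shown for 4 of the genes that fell, 1 or 2 from each cluster with a call, to set side by side the start regions of genes that moved together. RefSeq windows of the assembly GRCm38.p6, with 250 bases before the start and 50 after it, were found for 20 of the 36 members and for 7 of the 12 that fell. The windows lie at chr6:52208623-52208922 on the minus strand (Hoxa6), chr6:52218524-52218823 on the minus strand (Hoxa7), chr15:103034145-103034444 on the plus strand (Hoxc4) and chr2:74704365-74704664 on the plus strand (Hoxd8). Each is written 5′ to 3′ on the strand of its gene, and capitals mark matches on either strand to CCAAT or TTTATG.
Hoxa6: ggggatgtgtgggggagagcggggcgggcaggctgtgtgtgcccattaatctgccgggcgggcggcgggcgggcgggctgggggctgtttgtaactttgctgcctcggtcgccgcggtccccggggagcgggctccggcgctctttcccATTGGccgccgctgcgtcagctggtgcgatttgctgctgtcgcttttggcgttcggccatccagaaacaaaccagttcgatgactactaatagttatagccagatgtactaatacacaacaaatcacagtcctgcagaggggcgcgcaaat
Hoxa7: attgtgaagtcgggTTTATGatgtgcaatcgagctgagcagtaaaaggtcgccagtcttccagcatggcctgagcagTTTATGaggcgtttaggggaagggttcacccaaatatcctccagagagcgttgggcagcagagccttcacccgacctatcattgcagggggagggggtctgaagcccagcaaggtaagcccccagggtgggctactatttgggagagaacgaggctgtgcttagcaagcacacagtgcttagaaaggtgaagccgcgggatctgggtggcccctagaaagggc
Hoxc4: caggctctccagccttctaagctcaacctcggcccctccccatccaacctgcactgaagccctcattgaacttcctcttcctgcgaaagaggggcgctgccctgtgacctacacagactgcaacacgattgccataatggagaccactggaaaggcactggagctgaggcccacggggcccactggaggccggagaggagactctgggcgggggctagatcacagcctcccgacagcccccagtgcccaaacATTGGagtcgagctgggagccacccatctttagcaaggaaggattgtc
Hoxd8: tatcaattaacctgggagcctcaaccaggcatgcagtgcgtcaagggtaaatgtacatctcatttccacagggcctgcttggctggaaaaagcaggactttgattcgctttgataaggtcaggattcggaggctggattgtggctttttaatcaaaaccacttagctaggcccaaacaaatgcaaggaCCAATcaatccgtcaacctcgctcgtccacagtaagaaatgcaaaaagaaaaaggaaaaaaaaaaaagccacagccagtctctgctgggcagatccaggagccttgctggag
Hoxa7 holds 2 matches to TTTATG, a core bound by caudal-type factors such as Cdx2, and no CCAAT. Hoxa6, Hoxc4 and Hoxd8 hold 1 match each to CCAAT, a common promoter box.

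Among the 7 windows of genes that fell, 4 held CCAAT, 1 held TTTATG and 0 held TATAAA, on either strand. Among the 15 windows of the other members, 10 held CCAAT, 3 held TTTATG and 3 held TATAAA. In all 32841 windows of this length the shares were 37.4%, 11.9% and 13.6%. TGATTNAT, a composite of Hox and Pbx sites, was in 0 of 7, in 2 of 15 and in 3.22% of all windows, and TAATTA, which homeodomains bind, was in 0 of 7, in 2 of 15 and in 5.29%. Both windows with TAATTA belong to Hoxd11, which like Hoxa10 has 2 windows among the 15. Matches to TATAAA and TAATTA can share bases, whereas those to TTTATG and TATAAA cannot. The Hox windows were richer in G and C than windows in general, with medians of 58.7% and 52.7%, and held a median of 17 CpG dinucleotides against 7. A match is a run of letters and shows no binding.

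The Hox clusters also hold microRNA genes, whose mature forms are shown because they pair by their seeds and include the product of Mir196a-2, the only measured noncoding gene of the clusters that passed. Mir196b and Mir10a have no value here, and their mature forms are shown only for the shared seeds. Capitals mark the seed, bases 2 to 8.
mmu-miR-196a-5p: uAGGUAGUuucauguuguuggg
mmu-miR-196b-5p: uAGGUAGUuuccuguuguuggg
mmu-miR-10a-5p: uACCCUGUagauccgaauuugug
mmu-miR-10b-5p: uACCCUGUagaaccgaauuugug
The miR-196 forms share the seed AGGUAGU and are known to target Hox transcripts, Hoxb8 and Hoxc8 among them, and the miR-10 forms share ACCCUGU. Mir196a-2, in the C cluster, had a mean of 5.44, below the sensory receptor reference, and a difference of -0.21 (adjusted p = 0.0459 by limma). It missed the threshold in 8 of the 9 fits that left out 1 mouse, all but that without low fat mouse 4, at -0.23 to -0.17. Mir196a-1, in the B cluster, differed by -0.21 (adjusted p = 0.185 by limma) and Mir10b, in the D cluster, by -0.16. The array probes read RNA of the gene and do not separate the mature forms, and 196a-5p is the product of both Mir196a genes. Of the 7 measured noncoding genes of the clusters, 5 lay at or below the reference. Hotair, the antisense RNA of the C cluster, lay at 6.28 and differed by 0.03. Hoxd3os1 and Hoxaas3 were the brightest at 6.64 and 6.55, with differences of -0.16 and -0.11. Hoxd3os1 and Hoxaas3 run antisense to Hox genes and, as no source used here gives the strand that was labelled, are uncertain.

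Around the Hox genes, 110 genes of 7 lists were measured, and 25 changed, against 21.5% of all genes called. Of the 110 genes 7 were higher and 18 lower, against 12.4% and 9.13% of all genes. Among genes above the sensory receptor reference, 13.8% were lower. High fat mice 1 and 2 had the arrays with the widest spread of values over all genes (SD 1.90, against at most 1.88 in the others). Without these mice 14 of the 110 changed, against 14.5% of all genes called in that fit. The 11 that then missed the threshold were Pbx2 (-0.20), Meis1 (-0.43), Meis2 (-0.26), Phc1 (-0.19), Kmt2b (-0.25), Men1 (-0.20), Mir196a-2 (-0.17), Calcoco1 (-0.18), Cbx5 (-0.24), Mtx2 (+0.22) and Meox1 (+0.36), all in the direction seen over 9 mice. The lists were set with earlier results of these data known.

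Of 8 cofactor genes 1 rose and 3 fell, with a median difference of 0.03. Pknox2, a relative of Meis, had 7.20, 7.39, 7.49, 7.39 and 7.46 in high fat mice and 6.75, 6.91, 6.90 and 6.94 in low fat mice, a difference of +0.51 (adjusted p = 0.000543 by limma). Meis2 and Meis1, the brightest cofactors at 8.83 and 8.45, differed by -0.30 and -0.45, and Pbx2 by -0.22. These 3 calls were near the threshold, with adjusted p-values of 0.0334, 0.0468 and 0.0467 by limma. Meis1 missed it in 7 of the 9 fits that left out 1 mouse, all but those without high fat mouse 5 or low fat mouse 4, at -0.49 to -0.31. Meis2 missed it without high fat mouse 1, 2, 3 or 4 or low fat mouse 1 or 2, at -0.31 to -0.25. Pbx2 missed it without high fat mouse 1, 3 or 4 or low fat mouse 2, 3 or 4, at -0.23 to -0.18. Low fat mouse 2, at 9.10, was the highest mouse for Meis1.

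Of 20 polycomb genes 6 fell and 0 rose, with a median difference of -0.04. All but 2 of the 20 lay above the sensory receptor reference, where 13.8% of genes were lower. Cbx7, a subunit of the first polycomb complex that reads methylated histone H3, had 8.78, 8.54, 8.49, 8.79 and 8.54 in high fat mice. It had 9.39, 9.23, 9.54 and 9.36 in low fat mice, without overlap, and was 1.68-fold lower (adjusted p = 0.000244 by limma). Phf1, an accessory subunit of the second complex, was 1.41-fold lower, also without overlap. Phc3, Jarid2 and Phc1 differed by -0.29, -0.25 and -0.24. Rbbp4, the brightest of the list at 10.96, differed by -0.21, missed the threshold without low fat mouse 4 at -0.17, and differed by +0.01 as the mean of its probes and by +0.23 on its most variable probe, so its probes disagree. Rbbp7, the next brightest at 10.16, differed by -0.05.

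Of 10 trithorax genes 3 fell and 0 rose, with a median difference of -0.11. All 10 lay above the sensory receptor reference, where 13.8% of genes were lower. Kmt2b and Men1, parts of a complex that methylates histone H3, differed by -0.27 and -0.16, and Kdm6a, which removes the polycomb mark, by -0.26. Men1 missed the threshold in 8 of the 9 fits that left out 1 mouse, all but that without low fat mouse 3, at -0.18 to -0.13. Kmt2a and Kdm6b were the brightest at 9.90 and 9.49, with differences of -0.12 and -0.23 that did not pass.

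Of 18 genes of retinoic acid and Cdx factors 2 rose and 1 fell, with a median difference of 0.00. Rara, a retinoic acid receptor, differed by +0.32, Aldh1a3, which makes retinoic acid, by +0.50, and the receptor partner Rxrg by -0.42 (adjusted p = 0.0116, 0.0137 and 0.000531 by limma). Dhrs3 and Aldh1a1 were the brightest at 11.98 and 11.35 and did not pass, at +0.18 and -0.35.

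Of 12 genes that flank the clusters 2 rose and 3 fell, with a median difference of 0.01. Hibadh, an enzyme of valine breakdown beyond the 5′ end of the A cluster, was the brightest at 11.87 and differed by -0.52. Skap2, beyond the 3′ end of the same cluster, differed by +0.50 (adjusted p = 0.000584 and 0.00102 by limma). Hibadh and Skap2 were each without overlap between groups. The other measured flank genes of the A cluster overlapped and did not pass: Snx10 at the 3′ side differed by +0.09 and Evx1 at the 5′ side by +0.06. Mtx2, beside the D cluster, differed by +0.27. Calcoco1 and Cbx5, near the C cluster, differed by -0.21 and -0.23. Calcoco1 missed the threshold without low fat mouse 3 or 4, at -0.19 and -0.18. Cbx5 missed it without high fat mouse 2, 3 or 5 or low fat mouse 1, 2 or 3, at -0.23 to -0.20.

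Of 35 other genes of positional identity 2 rose and 1 fell, with a median difference of 0.02. Prrx1, a homeobox gene of limb and trunk mesenchyme, had 10.61, 10.78, 10.96, 10.87 and 10.96 in high fat mice and 9.91, 9.87, 9.85 and 9.71 in low fat mice. It was 2.00-fold higher (adjusted p = 5.35e-05 by limma), the opposite direction to Hoxc8. Meox1, a somite gene, differed by +0.38 and Gata6, a gene of visceral mesoderm, by -0.56. Osr1, a gene of the intermediate and lateral mesoderm, was the brightest at 11.31 and differed by -0.01. Wt1, a mesothelial and visceral fat gene, lay at 8.57 and differed by 0.06, and neither passed.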

How the data were processed

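RNA from periprostatic fat of 9 mice was hybridised to 1 array each. The deposited values are log2 expression per probe set, and the submitters' processing notes name RMA, which normalizes arrays to each other, as well as limma and R 3.5.0. Neither the array software nor any batch of hybridisation is given in the sources used here, and the number of arrays limits precision. The table has 33793 rows, of which 23521 have exactly 1 gene symbol in the platform's probe table and 1814 several. For each symbol the probe with the highest mean was kept, which left 22180 genes. 7 probes that name a Hox gene among several symbols were not used.

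Diet was tested with limma 3.58.1 (lmFit, eBayes) in R 4.3.3, without covariates, at a Benjamini-Hochberg adjusted p of 0.05 over all 22180 genes. Single genes were also tested with a two-sided exact permutation test over 126 assignments. The code was tested on simulated data. Nothing in the labels says how mice shared cages or litters. Every Hox gene is named, with values per mouse for those that passed, those without overlap and the 6 brightest, and of each list around them the members past the threshold, at most 6 by smallest p, and the 2 brightest. The members and lists were chosen with earlier results of these data known. All 36 members matched RefSeq (GRCm38.p6) by gene identifier. Alternatives covered normalization, dim genes, probes, the variance model, the mouse number as a block, tissue covariates, thresholds and leaving out mice.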

Additional observations from a re-analysis of the deposited data

Results flagged for a closer look

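In 6 of 72 groups tested (36 genes in 2 diets), 1 mouse stood apart from the others of its diet by a gap that was large beside the group's range, and chance gives about 1 in 20 such groups. High fat mouse 3 was low for Hoxa4, at 7.25, and for Hoxc10, at 7.11, where the nearest other high fat mouse stood at 7.35 and 7.44. High fat mouse 2 was low for Hoxb8 at 5.13. Low fat mouse 3 was high for Hoxb6 at 7.19 and for Hoxd12 at 5.81, and low fat mouse 1 for Hoxd3 at 6.68. Of these genes only Hoxc10 passed the test between diets, and its value without high fat mouse 3 was -0.30.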

How the results depend on the processing

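Of 29 alternatives, all but 2 kept the count of Hox genes that fell within 1.5 times the 12 reported, and 0 rose in each. With limma's treat test against a 1.1-fold change 6 fell. With an exact permutation test per gene 0 fell, and 0 genes of the surrounding lists and 0 of all genes passed, since the smallest adjusted p it gave was 0.0765, so it says nothing about stability. At an adjusted p of 0.01, 8 Hox genes fell, and Hoxc5, Hoxc10, Hoxd8 and Hoxd9 missed the threshold. The surrounding lists then had 12 changed genes of 25 and all genes 2657 of 4768, and with treat 9 and 2128. Without high fat mice 1 and 2 the surrounding lists had 14. Above the 99th percentile of the sensory receptor genes lay 13 Hox genes in place of 25. Leaving out each mouse gave 10 to 14 Hox genes lower, 20 to 24 changed in the surrounding lists, 3759 to 4364 over all genes and 25 to 26 Hox genes above the reference. Signs turned for genes near 0: Hoxa13 with the replicate block (-0.00243), Hoxc11 and Hoxc12 with arrays centred (-0.0340 and -0.0225) and Hoxd12 without high fat mice 1 and 2 (0.0224). Leaving out each mouse, Hoxa13 ran from -0.0177 to 0.149, Hoxb7 from -0.0517 to 0.00263, Hoxc11 from -0.000298 to 0.0212, Hoxc12 from -0.0106 to 0.0505, Hoxd11 from -0.0819 to 0.0307 and Hoxd12 from -0.0339 to 0.0190. Rbbp4 turned with the mean of its probes (0.0129) and its most variable probe (0.234). The causes were not tested. Same-numbered mice of the 2 diets had deviations that correlated at 0.048 to 0.126. For high fat mice 2 and 3 the low fat mouse with the highest correlation had the same number, and for mice 1 and 4 it did not. The labels state no pairing, and so few values cannot decide whether the numbers pair the mice. With the number as a block, which leaves out high fat mouse 5, 12 Hox genes fell, 22 surrounding genes changed and 4036 of all genes; Rbbp4, Men1, Rara, Mir196a-2, Cbx5 and Mtx2 then missed the threshold.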
